A study of Mus musculus with 20 samples.

Results

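The genes described here code for the mitochondrial respiratory chain and were read in whole mouse trachea on 1-colour Agilent microarrays. The members were all non-control probes whose gene name on the array begins with Nduf, Sdha to Sdhd, Uqcr, Cox4 to Cox8 or Atp5, leaving out Cox7a1 and Cox8b, which are markers of muscle and brown fat. By this rule 111 probes for 80 genes were members, of 41174 different probes on the array. The name rule also took in 3 genes that were not counted as coding for a subunit of the chain, which left 99 tested probes of 75 genes that were. Atp5s, now called Dmac2l, was long named as a coupling factor of ATP synthase and is listed with complex V below. Ndufaf1 codes for an assembly factor of complex I, and Cox4nb, now called Emc8, codes for a part of a membrane protein insertion complex of the endoplasmic reticulum.

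The study compared wild-type mice with Myd88 knockout mice (Myd88KO), both on C57/Bl6 and labelled as 4 months old. Myd88 is the adaptor that carries signals from Toll-like and interleukin-1 receptors, and its loss here was constitutive, in every cell. In each genotype 5 tracheas came from uninjured mice and 5 from mice given 2% polidocanol, a detergent that strips the airway epithelium, into the trachea 3 days earlier. The 4 groups are called WT-control, KO-control, WT-injury and KO-injury, with an array number from 1 to 5. Per the study's methods, knockout mice were bred with each other and wild-type mice came from a separate in-house colony, so genotype and colony cannot be told apart. The study's methods give mice of both sexes and an age of 4 to 6 months, a wider range than the labels, and no label gives a sex. The p-values measure the spread between these samples.

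Respiratory chain complexes lie in the inner mitochondrial membrane. Complex I takes electrons from NADH and complex II from succinate, complex III passes them from ubiquinol to cytochrome c, and complex IV hands them to oxygen. The proton gradient built on the way drives ATP synthase, or complex V. Most subunits are coded in the nucleus, and their messenger RNAs are known to be abundant in tissues with high oxidative capacity, such as heart, oxidative skeletal muscle and brown fat. In the airway, ciliated cells are rich in mitochondria. In RNA from a whole organ, fewer cells of a type and less RNA per cell cannot be told apart.

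All levels below are log2 of a probe's processed intensity over the 75th percentile of its array, so a level of 0 is the 75th percentile, and levels of different probes are not comparable with each other. A difference is the gap between the mean levels of 2 groups, in log2 units. A probe was tested when it was clearly brighter than background on 10 or more of the 20 arrays, and called when the Benjamini-Hochberg adjusted p of limma's test over all 26075 tested probes was under 0.01. Of the members 104 were tested, for 78 of 80 genes, and 102 of these were well above background on every array. The 7 untested members were Cox4i2, the isoform of complex IV subunit 4 known from lung, which was well above background on 3 arrays (2 of KO-control and 1 of KO-injury), Cox8c, known from testis, on none, and one probe each of Ndufab1, Ndufs1, Ndufs4, Sdhc and Cox5a, also on none. No probe carried the gene names Cox7b2 or Ndufa4l2.

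Array intensities at the 75th percentile ran from 495 to 972, between 57.5% and 67.8% of spots were well above background, and the correlation between arrays of a group, over tested probes, was 0.925 to 0.990. The Myd88 probe averaged 2.65 in WT-injury (range 2.36 to 2.80) and 1.89 in KO-injury (1.54 to 2.09), a called difference of -0.77 (adjusted p = 0.00824). Before injury it averaged 2.08 (1.94 to 2.28) in wild-type and 1.86 (1.60 to 2.04) in Myd88KO trachea, and these groups overlapped (difference -0.21, adjusted p = 1.00). The probe was not placed against the knocked-out exons here, so it is no full check of the genotype. Secretory epithelial markers, 8 tested probes, had summed linear levels of 913 to 3222 over the 20 arrays, and cartilage markers, 11 tested probes, of 30.3 to 86.6. Skeletal muscle markers had sums of 1468 to 4543 and thyroid markers of 158 to 918. No reference tissue was set beside these sums, so they are no full check of the labelled tissue.

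In injured wild-type trachea, the probes of the chain sat a little lower than in uninjured trachea, and few passed the test. The median difference over the 104 tested members was -0.23, against 0.00 over all tested probes, and 92 of 104 members lay below 0, against 13034 of all 26075 probes. By the test, 2 members rose and 0 fell, or 1.92% of members, where 5.26% of all probes were called (3.24% higher and 2.02% lower). The called probes were 1 of the 3 tested probes of Ndufab1 and 1 of the 2 of Cox4nb. At an unadjusted p under 0.05, limma gave 3 members higher, the third being a probe of the accessory subunit Ndufa3 (0.58, adjusted p = 0.0991), and 2 lower, of Ndufs1 and Sdha, against 14.5% and 11.9% of all probes. Ndufa3 was named after its value was seen.

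**Figure D1:**
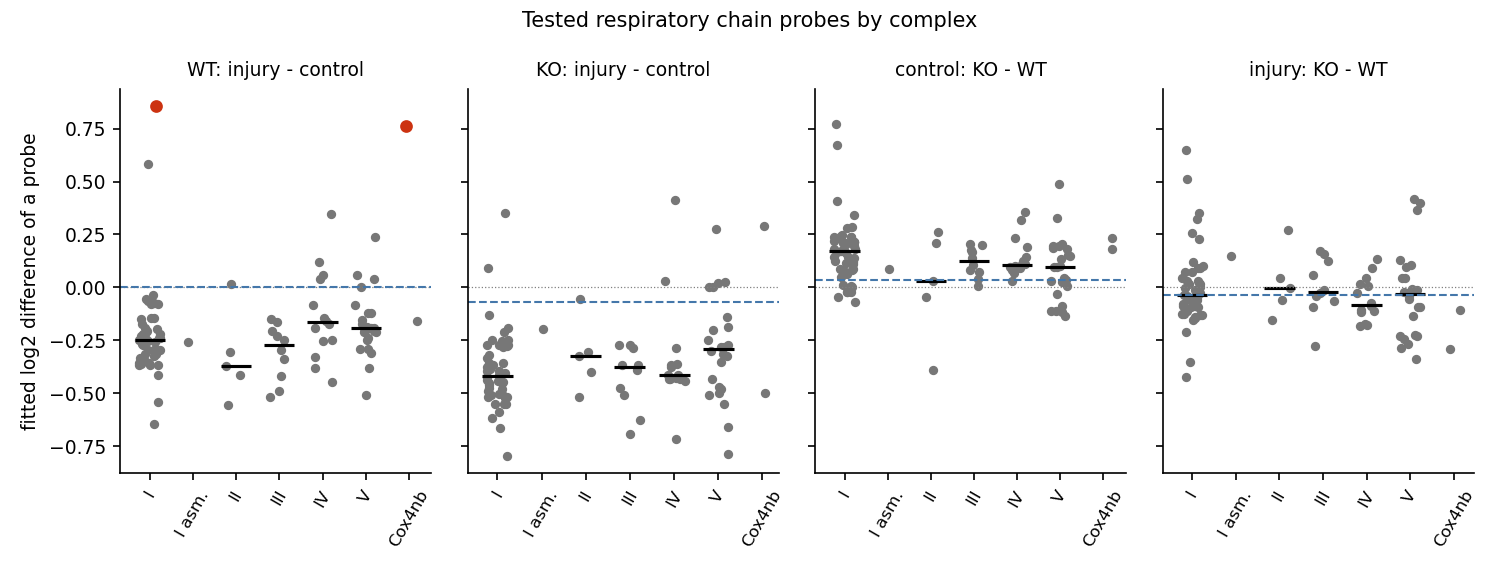
Fitted log2 difference of each tested member (y axis, 1 point per probe) by complex (x axis, with Ndufaf1 as I asm.) in the 4 comparisons, with a black bar at the median of each complex, a dashed line at the median of all tested probes and red points for called probes. In both injury panels the medians of the 5 complexes lie between -0.42 and -0.16, below the dashed line. Only the wild-type injury panel has red points, those of Ndufab1 and Cox4nb, which lie above 0.

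The median lay below 0 in each complex. In WT-injury the median difference was -0.25 over 48 probes of complex I (46 below 0), -0.37 over 5 of complex II (4 below 0) and -0.27 over 10 of complex III (10 below 0). It was -0.16 over 14 probes of complex IV (10 below 0) and -0.19 over 24 of complex V (20 below 0). With each of the 4 other scalings or background corrections tried, all of these medians stayed below 0, between -0.42 and -0.15. None of these complexes had a member that fell by the test.

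Ndufab1 codes for the mitochondrial acyl carrier protein, which is a subunit of complex I and also serves fatty acid and lipoic acid synthesis. Its called probe (array file position chromosome 7, 118012418 to 118012477) read 0.46, 0.27, 0.46, 0.28 and 0.46 in WT-control and 1.13, 1.21, 1.19, 1.54 and 1.14 in WT-injury. All injured wild-type arrays lay above all uninjured ones, which held for 2 members, against 7.89% of all probes, and the probe rose by 0.85 (SE 0.16, limma, adjusted p = 0.00245). In Myd88KO trachea it read 0.54, 0.47, 0.50, 0.37 and 0.46 before and 1.34, 1.00, 0.35, 1.03 and 0.38 after injury. There KO-injury-3 and KO-injury-5 did not exceed the uninjured arrays, the other 3 did, and the difference was 0.35 (SE 0.16, adjusted p = 0.245).

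The other tested Ndufab1 probes did not show this pattern. The probe at 118015882 to 118015941 differed by -0.29 in wild-type and -0.44 in Myd88KO trachea, and that at 118011283 to 118011342 by -0.22 and -0.25. The gene therefore had probes on both sides of 0, and which transcript each one reads was not analysed here. Of 14 tested proliferation marker probes 8 rose in wild-type injury, where 3.24% of all probes were called higher. Their summed levels were 10.1 to 20.7 in WT-control and 29.8 to 48.1 in WT-injury. They were 8.38 to 11.5 in KO-control and 9.19 to 46.6 in KO-injury, with 22.3 in KO-injury-3 and 9.19 in KO-injury-5. Their part in the Ndufab1 result was not tested.

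Cox4nb was the other called gene, and is not part of the chain. The called probe (chromosome 8, 119292980 to 119293039) read 0.27, 0.28, 0.18, 0.24 and 0.20 in WT-control and 0.77, 1.23, 0.98, 1.34 and 0.64 in WT-injury, with no overlap. It rose by 0.76 (SE 0.15, limma, adjusted p = 0.00338), and without WT-injury-2 it was no longer called, leaving 1 called member. In Myd88KO trachea it read 0.33, 0.47, 0.51, 0.29 and 0.46 before and 0.63, 1.14, 0.49, 0.86 and 0.37 after injury, so 2 injured arrays lay within the uninjured range. The second probe of Cox4nb differed by -0.16 in wild-type and by -0.50 in Myd88KO trachea (adjusted p = 0.0535).

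Among the core subunits of complex I, Ndufs1, the iron-sulphur subunit of the NADH-oxidising arm, had the largest negative difference of any member in wild-type injury. Its tested probe (chromosome 1, 63384448 to 63384507) read 4.73, 5.14, 4.44, 4.84 and 4.77 in WT-control and 4.41, 3.89, 4.01, 4.14 and 4.25 in WT-injury. Every injured array lay below every uninjured one, which among members held for 1 probe, against 4.68% of all probes. The difference was -0.65 (SE 0.20, limma, adjusted p = 0.0349), so it was not called. With scan day as a block it was called (adjusted p = 0.00896), and likewise with array weights (0.00680). In Myd88KO trachea it read 5.15, 4.62, 4.42, 4.69 and 4.93 before and 4.65, 4.18, 4.37, 4.09 and 5.16 after injury, and the groups overlapped (difference -0.27, adjusted p = 0.479).

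Ndufv1 and Ndufs7 of complex I and the subunits of complexes II and III named here had differences of -0.21 to -0.56 in wild-type injury, none called by limma. Ndufv1, which binds NADH, differed by -0.24 and Ndufs7, which lies near the ubiquinone site, by -0.36. For complex II, the flavoprotein Sdha differed by -0.56 on one probe (adjusted p = 0.127) and by -0.37 on the other, and the iron-sulphur protein Sdhb by -0.41. For complex III, the core protein Uqcrc1 differed by -0.30 and -0.21 on its 2 probes, Uqcrc2 by -0.42 and the Rieske iron-sulphur protein Uqcrfs1 by -0.34. For ATP synthase, the catalytic-head subunits Atp5a1 (-0.12 and -0.31), Atp5b (-0.21, -0.24 and -0.19) and Atp5c1 (-0.15) had differences that overlapped this range.

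In injured Myd88KO trachea the members sat lower than in uninjured Myd88KO trachea by a median of 0.39 log2 units, and none passed the test. The median difference was -0.39, against -0.07 over all tested probes, and 94 of 104 members lay below 0, against 57.7% of all probes. The count called by limma was 0 of 104, where 0.376% of all probes were called (0.134% higher and 0.242% lower). At an unadjusted p under 0.05 it was 1 member higher, the Ndufab1 probe called in wild-type injury, and 18 lower, or 17.3% lower, against 7.32% of all probes higher and 12.2% lower. No member had groups that did not overlap, against 1.15% of all probes higher and 2.30% lower.

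By complex, the medians in Myd88KO injury were -0.42 for complex I (46 of 48 below 0), -0.32 for complex II (5 of 5) and -0.38 for complex III (10 of 10). They were -0.41 for complex IV (12 of 14) and -0.29 for complex V (19 of 24). With the 4 other scalings or background corrections all stayed below 0, between -0.43 and -0.14. How many members reached an unadjusted p under 0.05 in either direction, 19 with all arrays, moved with single arrays. It was 6 without KO-injury-4, 7 without KO-injury-3, 7 without KO-control-5 and 11 without KO-control-1. It was 39 without KO-control-4, 43 without KO-injury-1 and 61 without KO-injury-5, and with slide or scan day as a block it was 58. The share of all probes at that p under each of these settings is not set beside them, so the counts describe the members alone. The family median ran from -0.26 without KO-injury-4 to -0.55 without KO-injury-5, and was -0.57 with array weights. Without KO-injury-5 1 member was called, the second Cox4nb probe (-0.59, adjusted p = 0.00878).

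Members with the lowest p in Myd88KO injury came from several complexes. Uqcrc1 read 6.44, 5.997, 6.04, 5.72 and 6.58 in KO-control and 5.83, 5.70, 5.22 and 5.11 on the first 4 KO-injury arrays, and the spot of KO-injury-5 had been marked as an outlier by the scanner software and was left out. All of these but KO-injury-1 lay below the uninjured arrays. The difference over these 9 arrays was -0.69 (SE 0.21, limma, adjusted p = 0.0745). With the left-out spot, which read 6.28, it was -0.53 (adjusted p = 0.190).

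Ndufa13, an accessory subunit of complex I also known as a cell death regulator, read 8.14, 7.78, 7.75, 7.29 and 8.36 in KO-control. The first 4 KO-injury arrays read 7.73, 7.24, 6.75 and 6.56, so that KO-injury-2, KO-injury-3 and KO-injury-4 lay below all uninjured arrays. The difference was -0.79 (SE 0.25, limma, adjusted p = 0.0932) without KO-injury-5, whose outlier spot read 8.18, and -0.57 (adjusted p = 0.259) with it. Atp5j2, the f subunit of ATP synthase, lost the same array and differed by -0.66 (adjusted p = 0.113), or by -0.51 (0.223) with it. Of complex II, the membrane anchor Sdhc differed by -0.52 (adjusted p = 0.167), and of complex IV, Cox6a1 by -0.44 (adjusted p = 0.155).

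**Figure D2:**
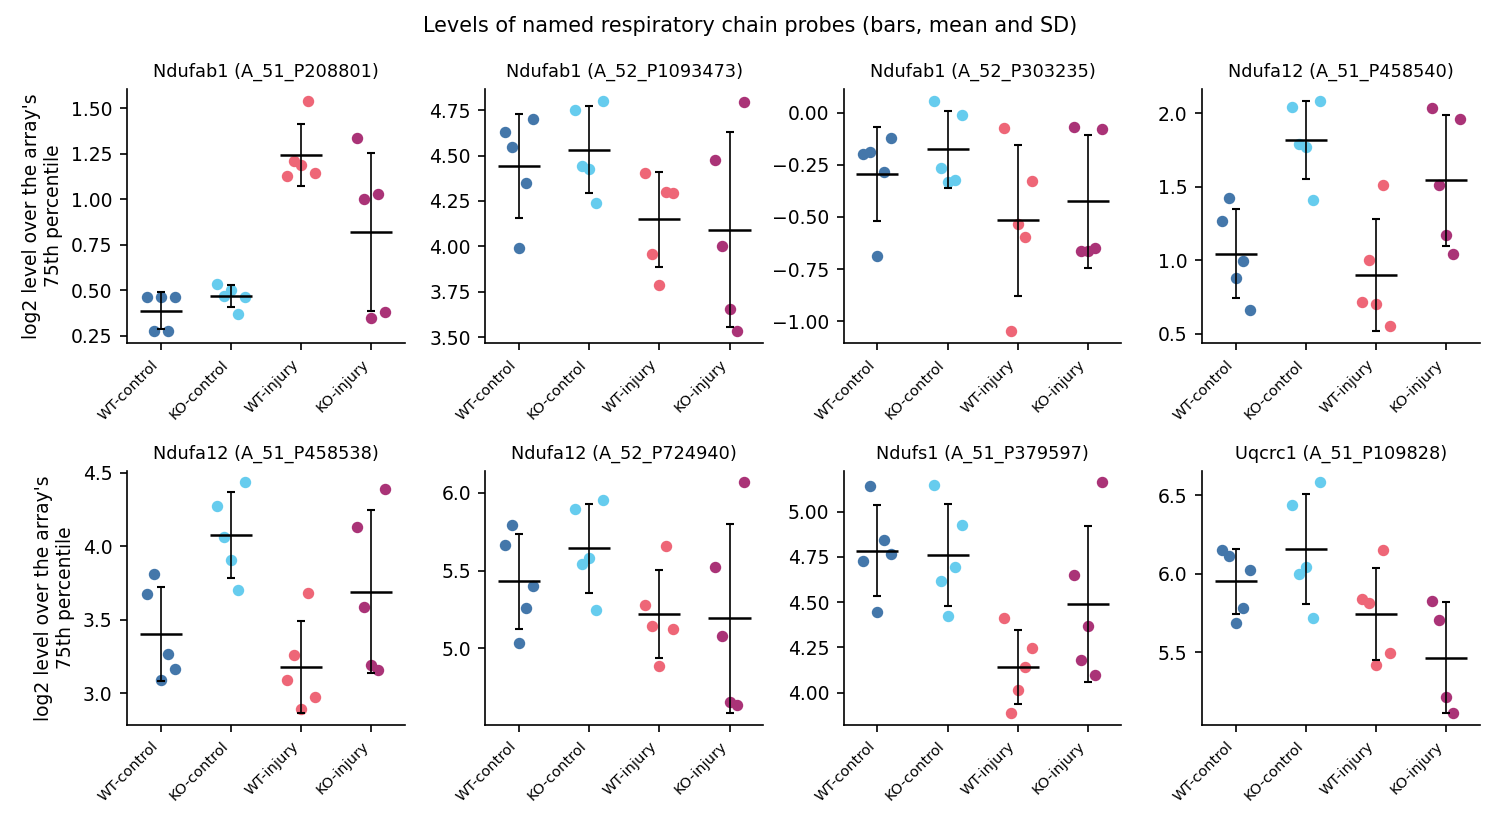
Levels (y axes, log2 over the 75th percentile of the array, each panel on its own scale) of 8 named probes by group (x axis), with 1 point per array and bars for the mean and SD. In the first panel the 5 WT-injury arrays lie above all uninjured arrays while 2 KO-injury arrays do not, and the other Ndufab1 probes do not show this.

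Genotype comparisons gave no called member. Before injury the members lay slightly higher in Myd88KO trachea, with a median difference of 0.14 against 0.04 over all probes and 13 of 104 below 0 against 43.3%. By limma 0 members were called (0.384% of all probes were, 0.188% higher and 0.196% lower), with 2 higher, both of Ndufa12, and 0 lower at an unadjusted p under 0.05, against 3.82% and 1.77% of all probes. The median of complex II, 0.03, turned to -0.02 under quantile normalisation, and those of the other complexes, 0.10 to 0.17, kept their sign under the scalings tried. The family median was 0.03 without WT-control-3, 0.06 without KO-control-1, 0.05 without KO-control-5 and 0.23 without KO-control-4. Between the uninjured arrays of a slide, the median member difference was 0.16, -0.18, 0.38, -0.07 and 0.36 on slides 1 to 5. The direction was thus not the same on every slide.

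After injury the family median was -0.04, against -0.03 over all probes, with 65 of 104 members below 0 against 54.7%, and it turned to 0.09 under quantile normalisation. It was also above 0 without KO-injury-3 (0.07) and without KO-injury-4 (0.10), and -0.18 without KO-injury-5 and -0.25 with array weights. By limma 0 members were called in this comparison (0.380% of all probes were, 0.150% higher and 0.230% lower), with the same 2 probes of Ndufa12 higher and the Ndufab1 probe lower at an unadjusted p under 0.05, against 4.43% and 8.09% of all probes. Which genotype lay higher after injury was thus not settled for the family by these arrays.

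Ndufa12, an accessory subunit of complex I, had the lowest p of the family in both genotype comparisons. Its probe at chromosome 10, 93758922 to 93758981, read 1.27, 1.43, 0.88, 1.00 and 0.66 in WT-control and 2.04, 1.79, 1.77, 1.41 and 2.08 in KO-control. Only KO-control-4 lay within the wild-type range. The difference was 0.77 (SE 0.22, limma, adjusted p = 0.227).

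After injury the same Ndufa12 probe read 0.72, 1.00, 0.70, 1.51 and 0.55 in wild-type and 2.03, 1.51, 1.17, 1.04 and 1.96 in Myd88KO trachea, a difference of 0.65 (SE 0.22, limma, adjusted p = 0.227). WT-injury-4 reached into the Myd88KO range. A probe at 93758942 to 93759001, which shares most of its target with the first, differed by 0.67 and 0.51. The third, at 93780198 to 93780257, differed by 0.21 and -0.03, so the probes of this gene did not move alike.

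The groups that did not overlap before injury were those of the called Cox4nb probe, higher in Myd88KO trachea by 0.18 (limma, adjusted p = 1.00). This was 1 member of 104, against 1.71% of all probes. After injury no member had groups that did not overlap, against 0.694% of all probes higher and 1.26% lower.

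The difference between the 2 injury responses was tested as an interaction, and 0 members and 0% of all probes were called by limma. At an unadjusted p under 0.05 there were 0 members higher and 3 lower, against 3.41% and 6.96% of all probes. The 3 were Cox4nb (-0.47, adjusted p = 0.471), the called Ndufab1 probe (-0.50, adjusted p = 0.474) and Cox6a1 (-0.50, adjusted p = 0.482). The median interaction over the members was -0.17, against -0.09 over all probes, with 81 of 104 below 0 against 58.7%. It ran from -0.34 without KO-injury-5 to -0.03 without KO-injury-4, and was -0.01 under quantile normalisation. The injury responses of Ndufab1 and Cox4nb were thus not shown to differ between genotypes.

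Cox6a1 and Cox6a2 code for the liver-type and the heart and muscle-type form of complex IV subunit 6a. The Cox6a1 probe differed by 0.06 in wild-type injury and by -0.44 in Myd88KO injury, and Cox6a2 by -0.45 and -0.71, with adjusted p values in limma of 0.155 or more. Cox6a2 read 7.70, 7.30, 7.14, 6.83 and 8.19 in KO-control and 6.93, 6.82, 6.17, 5.64 and 8.03 in KO-injury. KO-injury-1 and KO-injury-5 lay within the uninjured range and the other 3 arrays below it.

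For the other paired forms, Cox6b1 differed by -0.15 and -0.37 in wild-type and Myd88KO injury, and Cox6b2, known from testis, by 0.35 and 0.41. The Cox6b2 probe read 1.04 in KO-injury-1 and between -1.31 and -0.51 on the other 4 arrays of that group. Cox7a2, the widespread form of subunit 7a, differed by -0.19 and -0.17 on its 2 probes in wild-type injury and by -0.41 and -0.43 in Myd88KO injury. Cox7a2l, a factor that joins complexes III and IV into supercomplexes, differed by 0.04 and 0.03, and its sign turned in both with array weights and in wild-type trachea under quantile normalisation (-0.01).

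Subunit 8a of complex IV (Cox8a) differed by 0.12 in wild-type injury and by -0.41 in Myd88KO injury, and by 0.36 between uninjured genotypes. Among other nuclear-coded subunits of complex IV, Cox4i1 differed by -0.08 and -0.29, Cox5a by -0.25 and -0.43, and Cox5b by -0.16 and -0.43. None of these was called by limma.

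The c subunits of the ATP synthase rotor are made from 3 genes with a common mature protein. Atp5g1 differed by -0.29 in wild-type and -0.55 in Myd88KO injury, Atp5g3 by -0.20 and -0.25, and the 2 probes of Atp5g2 by 0.06 and 0.24 against -0.32 and -0.19. Only Atp5g2 thus had values above 0 in wild-type injury, and no probe of the 3 genes was called.

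To show what the upstream sequence of these genes looks like, RefSeq promoters (build GRCm38.p6, from 250 bases before to 50 after the start) were searched on both strands for 4 motifs of factors known for nuclear-coded mitochondrial genes. Of 79 member genes, Cox4nb left aside, 65 had a promoter in the table, with 70 promoters. The 10-letter palindromic site of NRF1, whose letters are the first capitals in the Cox6a1 sequence below, was in 5 (7.14%), against 0.971% of all 32851 promoters of that length. CCGGAAG, of ETS factors, was in 17 (24.3% against 8.86%). The YY1 site was in 5 (7.14% against 0.852%), and TCAAGGTCA, of the oestrogen-related receptors, in 2 (2.86% against 0.423%). Any of these was in 25 of 70 (35.7%), against 10.7% of all promoters. A match is a description of the letters and was not tested for binding.

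The 250 bases before the start are shown for 3 of the genes above, on the strand of the gene, with the motif letters in capitals. Cox6a1 (chr5:115348959-115349208, minus strand) holds the NRF1 motif, starting 162 bases before the start, and an ETS motif on the opposite strand 16 bases before it. Atp5g2 (chr15:102671048-102671297, minus strand) holds the NRF1 motif 42 bases before the start. Atp5g3 (chr2:73911327-73911576, minus strand) holds the oestrogen-related receptor motif on the opposite strand 52 bases before the start.
Cox6a1: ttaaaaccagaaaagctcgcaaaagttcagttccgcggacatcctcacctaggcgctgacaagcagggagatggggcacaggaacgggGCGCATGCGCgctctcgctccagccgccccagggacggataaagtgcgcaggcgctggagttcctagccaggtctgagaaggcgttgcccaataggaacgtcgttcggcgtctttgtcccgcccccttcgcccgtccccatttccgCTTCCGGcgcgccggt
Atp5g2: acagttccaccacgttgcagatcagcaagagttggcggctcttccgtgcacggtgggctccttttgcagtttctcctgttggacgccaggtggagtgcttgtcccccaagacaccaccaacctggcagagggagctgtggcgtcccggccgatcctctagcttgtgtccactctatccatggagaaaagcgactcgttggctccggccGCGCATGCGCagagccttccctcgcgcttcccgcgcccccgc
Atp5g3: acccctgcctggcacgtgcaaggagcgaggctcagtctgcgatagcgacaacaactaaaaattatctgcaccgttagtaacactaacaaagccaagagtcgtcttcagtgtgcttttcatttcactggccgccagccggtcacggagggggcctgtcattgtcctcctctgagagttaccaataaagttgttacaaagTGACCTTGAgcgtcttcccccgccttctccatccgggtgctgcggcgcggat

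Within groups, the probes of the chain moved up and down together from array to array. The median over the members of each array's level, relative to the WT-control mean of each probe, was 0.23, 0.24, -0.42, -0.15 and 0.14 in WT-control and 0.39, 0.07, -0.02, -0.22 and 0.53 in KO-control. After injury it was -0.01, -0.32, -0.51, 0.00 and -0.20 in wild-type and 0.20, -0.27, -0.69, -0.77 and 0.38 in Myd88KO trachea. Group means were 0.01 ± 0.28, 0.15 ± 0.31, -0.21 ± 0.22 and -0.23 ± 0.51 (SD, n = 5 each), so all 4 groups overlapped and KO-injury was the most spread.

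**Figure D3:**
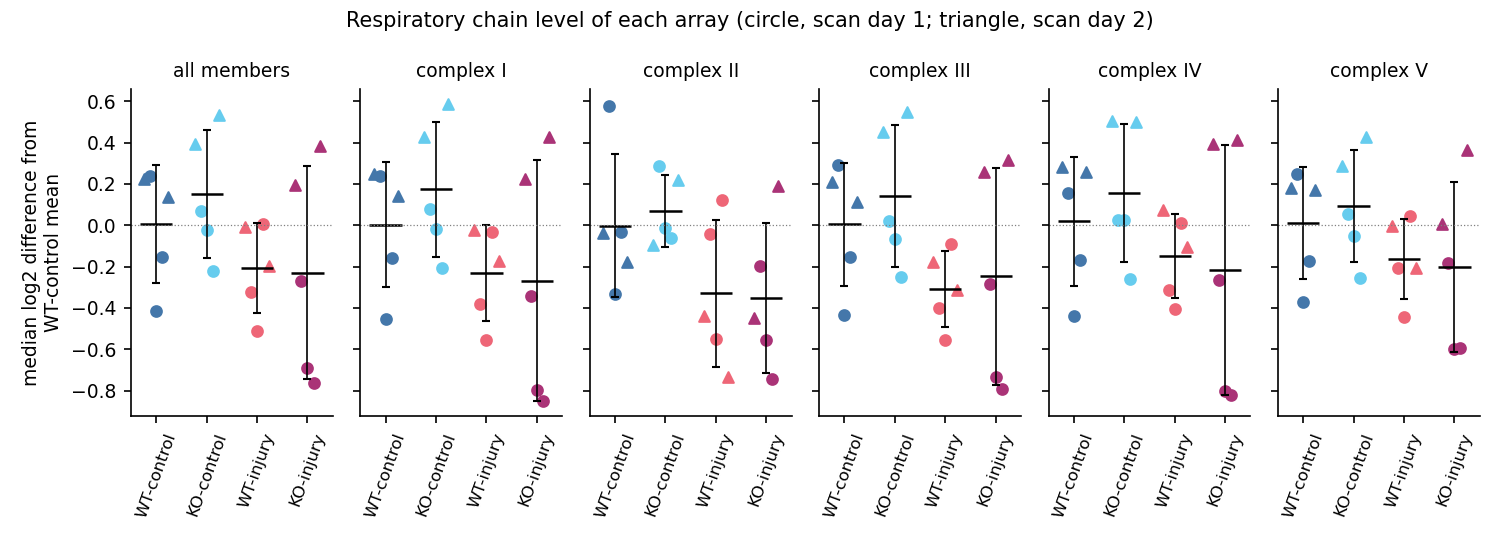
Median log2 difference of the members from their WT-control means on each array (y axis) by group (x axis), for all members and for each complex, with circles for scan day 1, triangles for day 2 and bars for the mean and SD. Over all members KO-injury runs from -0.77 to 0.38, with both triangles above the 3 circles.

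On some arrays nearly all members deviated the same way. In KO-injury-3, 98 of 104 members lay below their group mean, as did 97 of 103 in KO-injury-4, whereas 92 of 98 lay above it in KO-injury-5. In WT-control-3 it was 97 of 103 below, and in WT-injury-3 it was 98 of 103.

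**Figure D4:**
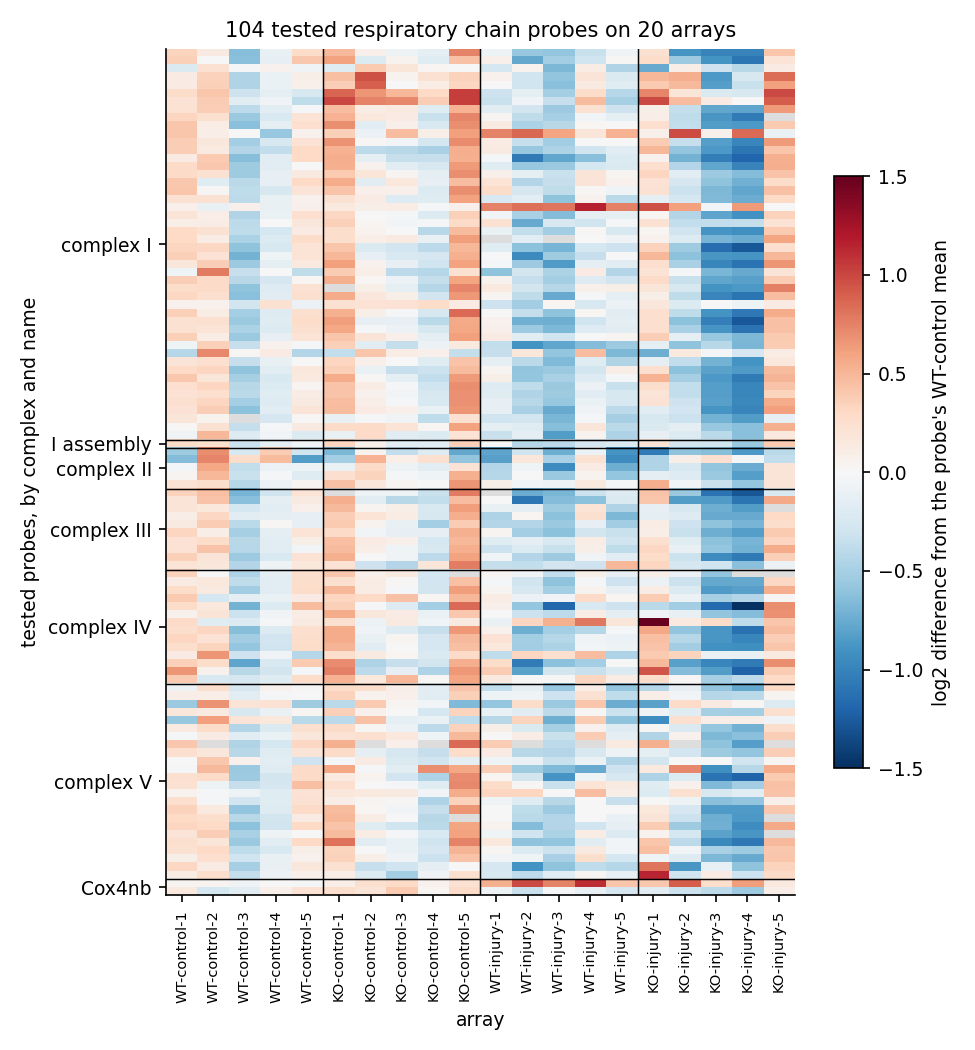
Log2 difference of each of the 104 tested members (rows, by complex and name) from its own WT-control mean on the 20 arrays (columns), with blue below and red above 0 and grey where a spot was left out. Most rows share the colour of their column, as in KO-injury-3 and KO-injury-4, and the Ndufab1 and Cox4nb rows that stand out in red across WT-injury are the called probes.

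Arrays were scanned on 2 days, with slides 2, 3 and 4 on day 1 and slides 1 and 5 on day 2, and each slide held 1 array of each group, so day was balanced over groups. With group and scan day in the fit, 55 of 104 members were called between days by limma, 51 higher and 4 lower on day 2. This was 52.9% of members against 21.1% of all probes (10.2% higher and 10.9% lower). The median difference was 0.44, against 0.09 over all probes, and 95 of 104 members lay above 0 against 58.5%. This comparison was chosen after the values were seen. Each slide was scanned on 1 day only, so scan day cannot be told apart from the slides or from the mice on them.

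Members that were lower on day 2 included a probe of Sdha (-0.86, SE 0.11, limma, adjusted p = 2.72e-05) and 2 probes of Atp5b (-0.74, adjusted p = 0.000252, and -0.60, adjusted p = 0.00437). The third Atp5b probe was not called and lay on the other side of 0 (0.26, adjusted p = 0.0452). The called Ndufab1 probe differed by 0.02 between days (adjusted p = 0.925). Among 48 probes of complex I, 29 were called higher on day 2. In complex III 5 of 10 were called higher and in complex IV 8 of 14. In complex V 8 were called higher and 2 lower of 24, and in complex II 0 were called higher and 1 lower of 5.

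Cox7b, a small subunit of complex IV, had the largest difference between days of the tested members. It read 5.68 and 5.72 on WT-control-1 and WT-control-5, against 5.61, 4.54 and 5.11 on arrays 2 to 4, and in KO-control 6.04 and 5.87 against 4.88, 4.98 and 5.05. In WT-injury it read 5.60 and 5.34 against 4.29, 4.72 and 4.82, and in KO-injury 5.82 and 6.03 against 4.52, 4.35 and 4.28. Both arrays of day 2 were above all arrays of day 1 in each group, and the difference was 1.00 (SE 0.14, limma, adjusted p = 3.73e-05).

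Ndufa4, named as a complex I subunit and now known as part of complex IV, differed by 0.81 (SE 0.12, limma, adjusted p = 6.40e-05). The order was the same in all 4 groups for 9 members, of Cox7b, Ndufa1 (both probes), Ndufa4, Atp5k, Ndufa3, Ndufc1, Atp5f1 and Ndufc2, and the reverse for 2, of Sdha and Atp5b. Those of them other than Cox7b, Ndufa4, Sdha and Atp5b were named after their values were seen. Over all probes these counts were 774 and 1459 of 26075. The probe of Sdha read 0.65 and 0.46 on the day 2 arrays of WT-control against 2.03, 1.57 and 1.77, and 0.85 and 0.92 in KO-injury against 1.39, 1.55 and 1.28.

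Within scan days, the family medians of the groups kept the direction of both injury comparisons. Wild-type injury gave -0.17 on day 1 (3 arrays a group) and -0.29 on day 2 (2 arrays a group), and Myd88KO injury gave -0.52 and -0.17. Uninjured Myd88KO minus wild-type gave 0.05 and 0.28. Injured Myd88KO minus wild-type turned, from -0.30 on day 1 to 0.39 on day 2. Of the day 2 arrays, WT-injury-1 and WT-injury-5 had ciliated marker sums of 12.4 and 14.2, and KO-injury-1 and KO-injury-5 of 203 and 80.1. Median myeloid marker differences from the WT-control means were 2.81 and 2.75 against -0.04 and -0.41. The 3 KO-injury arrays of day 1 gave 0.20 to 2.63. On KO-injury-5 the secretory (2470) and proliferation (9.19) sums lay within the KO-control ranges. The part of these differences in the turn was not tested. By slide, the median member difference was -0.26, -0.59, -0.06, 0.17 and -0.33 for wild-type injury and -0.26, -0.36, -0.69, -0.56 and -0.11 for Myd88KO injury on slides 1 to 5. All 5 slides thus lay below 0 in Myd88KO and 4 of 5 in wild-type injury.

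Markers of other oxidative tissues, like the family, lay mostly below 0 in both injury comparisons, but this was not particular to such tissues. White adipocyte markers had 13 of 13 tested probes below 0 in both (medians -0.29 in wild-type and -0.73 in Myd88KO injury). Cartilage markers had 8 of 11 in wild-type and 9 of 11 in Myd88KO injury. Thyroid markers had 4 and 6 of 6, and smooth muscle markers 3 and 11 of 11. Basal epithelial markers had 5 and 3 of 11, myeloid markers 2 and 2 of 14, and proliferation markers 0 and 0 of 14. Of 9 brown adipocyte probes (8 genes), 7 were well above background on all 20 arrays, among them Ucp1, the uncoupling protein that defines these cells. Elovl3 was above background on 17 arrays, with 2 of 5 in WT-injury, and Kng2 on none. The summed linear level of the list was 151 to 391 in WT-control, 273 to 489 in KO-control, 100 to 220 in WT-injury and 87.5 to 463 in KO-injury. Of 8 tested probes, all 8 lay below 0 in wild-type injury (median -0.60) and in Myd88KO injury (-0.91). All 8 lay above 0 in uninjured Myd88KO against wild-type (0.87), and 0 were called by limma in each. At an unadjusted p under 0.05 it was 1 lower, 4 lower and 4 higher, against 11.9%, 12.2% and 3.82% of all probes. Between injured genotypes all 8 also lay above 0 (median 0.31), with 0 called and 3 higher at that p, against 4.43% of all probes. The family median was -0.04 there.

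**Figure D5:**
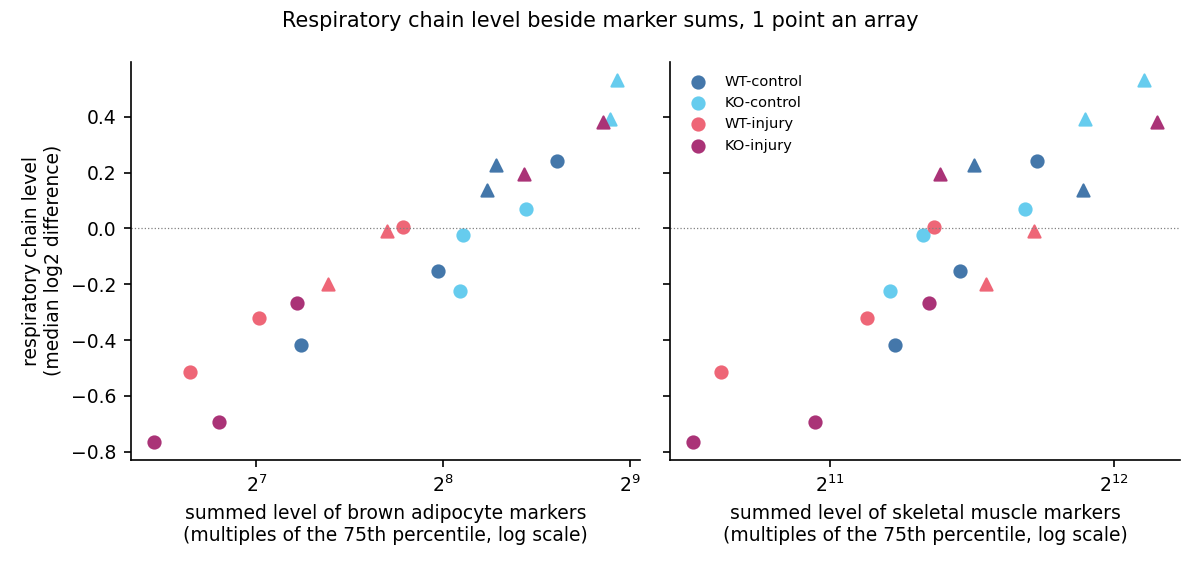
Respiratory chain level of each array (y axis, median log2 difference of the members from their WT-control means) against the summed level of brown adipocyte or skeletal muscle markers (x axes, multiples of the 75th percentile of the array, log scale), with colours for groups, circles for scan day 1 and triangles for day 2. KO-injury-4, at -0.77, has the lowest sum of both lists, 87.5 and 1468, and the arrays above 0.3 have sums near the top of both.

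Skeletal muscle markers, 21 probes of 14 genes all well above background on all 20 arrays, had sums of 2402 to 3797 in WT-control, 2372 to 4404 in KO-control, 1571 to 3369 in WT-injury and 1468 to 4543 in KO-injury. In wild-type injury 21 of 21 lay below 0 (median -0.35), and in Myd88KO injury 19 of 21 (-0.41), with 0 called by limma and 0 and 1 lower at an unadjusted p under 0.05. Between scan days, the mean brown adipocyte sum in KO-injury was 116 on day 1 and 405 on day 2, and that of skeletal muscle 2015 and 3610. Ciliated epithelial markers, 11 tested probes, had sums of 56.0 to 95.9 in WT-control and 12.4 to 80.4 in WT-injury. Their median was -1.63 in wild-type injury with 3 called lower, against 2.02% of all probes. Their sums were 59.7 to 73.6 in KO-control and 12.6 to 203 in KO-injury, where KO-injury-1 was highest. The median in Myd88KO injury was -0.83, with 0 called by limma and 3 lower at an unadjusted p under 0.05, against 12.2% of all probes. The part of these tissues in the family's levels was not tested.

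Other mitochondrial gene lists were measured beside the chain. Of 20 fatty acid oxidation probes, 2 fell in wild-type injury, both of Decr1, an enzyme needed to break down unsaturated fatty acids (-0.97, SE 0.18, adjusted p = 0.00184, and -0.79, adjusted p = 0.00759, limma). In that comparison 2.02% of all probes were called lower. The list's median was -0.44 in wild-type and -0.58 in Myd88KO injury. In Myd88KO injury 1 probe fell, of Hadha, the alpha subunit of the trifunctional protein (-0.94, SE 0.17, limma, adjusted p = 0.00905), a gene named after its value was seen. Its other probe differed by -0.42 (adjusted p = 0.251). Of all probes 0.242% were called lower in Myd88KO injury. At an unadjusted p under 0.05, 14 of 20 were lower there, against 12.2% of all probes.

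None of 27 tricarboxylic acid cycle probes was called in either injury comparison by limma, with medians of -0.25 and -0.31. At an unadjusted p under 0.05, 10 and 6 were lower, against 11.9% and 12.2% of all probes. Sucla2, a subunit of succinyl-CoA ligase, differed by -1.24 (adjusted p = 0.0247) and Dlat, of pyruvate dehydrogenase, by -0.75 (adjusted p = 0.0353) in wild-type injury. Among 45 probes of assembly factors and electron carriers none was called, with medians of -0.16 and -0.22. At an unadjusted p under 0.05, 5 and 4 of the 45 were lower, which was no more than the 11.9% and 12.2% of all probes. Both probes of Cycs, cytochrome c, had the lowest p there (-0.94, adjusted p = 0.0144, and -0.80, adjusted p = 0.0296).

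Mitochondrial ribosome genes lay nearer to 0 in wild-type injury. Their 122 probes had medians of 0.03 and -0.08 in wild-type and Myd88KO injury, with 0 called by limma. At an unadjusted p under 0.05 it was 3 higher and 6 lower in wild-type and 0 higher and 6 lower in Myd88KO injury. Over all probes it was 14.5% higher and 11.9% lower, and 7.32% higher and 12.2% lower. Mrp63 differed by -0.66 (adjusted p = 0.0282) and Mrpl3 by -0.70 (adjusted p = 0.0868) in wild-type injury. Regulators of mitochondrial biogenesis, 36 probes, had medians of -0.11 and -0.09, with 0 called. Beside the same shares of all probes, 3 were higher and 8 lower in wild-type injury, and 6 higher and 3 lower in Myd88KO injury. Their lowest p values were those of the nuclear receptor Esrrg (-0.98, adjusted p = 0.0161) and the fusion protein Opa1 (-0.67, adjusted p = 0.0202).

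Glycolysis, which makes ATP without the chain, had a median of 0.06 over 27 probes in wild-type injury and -0.22 in Myd88KO injury. In wild-type injury 1 probe rose, of Hk3, the hexokinase known from myeloid cells (2.55, SE 0.53, limma, adjusted p = 0.00393), and Pgam1 differed by 0.71 (adjusted p = 0.0273). Of 14 myeloid marker probes 6 rose in the same comparison, where 3.24% of all probes were called higher. In Myd88KO injury 0 glycolysis probes were called, with 5 lower at an unadjusted p under 0.05, against 12.2% of all probes.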

How the data were processed

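The deposited files are scanner output of 20 arrays, 1 per trachea. Per the file headers, the authors used Agilent Feature Extraction 9.5.1.1, whose processed intensity is background-corrected by the software. The genome build of the probe positions is not given in the sources used here. Control spots (1639 of 45018) and 1960 values marked as outliers were left out, spots of a probe were averaged, and log2 intensity minus the 75th percentile of the array was fitted with limma 3.58.1 in R 4.3.3, with 4 groups in 1 fit. On data simulated for wild-type injury over 26075 probes, 41 of 100 probes changed by 1 log2 unit and 88 of 100 changed by 2 were recovered, with 0 false calls. The simulated noise was independent between probes, without shifts of an array or scan day, so these rates need not hold for the real arrays. The number of arrays limits the precision. Named genes were the lowest-p member of each complex in each comparison, called members, the 3 lowest interaction p values, core subunits, paired isoforms and the 2 lowest-p probes of each other mitochondrial list. Members and lists were chosen with earlier results of these data known. Replicate numbers were shared by slide. Deviations of same-numbered arrays correlated by 0.252 to 0.476 between uninjured genotypes. Those arrays also shared a slide and a scan day, so the correlations cannot show whether the samples themselves were paired. The main fit had no block for slide, and results with that block are given below. Alternatives were other background corrections and scalings, filters, slide or scan day as a block, array weights, the methods' one-way test and leaving out each array. One result for a single member is not reported here.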

Additional observations from a re-analysis of the deposited data

Results flagged for a closer look

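Of 188 sets of values checked for a single array far from the others, 2 had one, where chance alone gives about 1 in 20. A set was a named probe, or the median of the family or of a complex, in a group. The Ndufab1 probe that rose in wild-type injury was highest in WT-injury-4, at 1.54 against 1.21 on the next array, a gap of 0.809 of the group's range. A probe of Atp5b was lowest in KO-injury-1, at 1.03 against 1.91 on the next array, a gap of 0.751 of the range.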

How the results depend on the processing

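Most results kept their direction and side of the threshold: of the called-member counts 186 stayed within 1.5 times and 5 moved, and of the values of single probes 3197 kept both, 25 lost and 35 gained a call, and 35 changed sign. In wild-type injury 1 member (Ndufab1) was called by the methods' one-way test, and 1 to 2 when each array was left out, 1 without WT-injury-2. In Myd88KO injury 2 members (a Ndufa1 and a Cox4nb probe, lower) were called with array weights, and 0 to 1 when each array was left out, 1 without KO-injury-5. Between scan days 34 members were called under quantile normalisation, and 41 to 62 with each array left out. The cause of these changes was not tested.

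With slide as the replicate block, 2 members were called in wild-type injury and 0 in each other comparison, so no call changed. Members at an unadjusted p under 0.05 went from 5 without the block (26.4% of all probes) to 13 in wild-type injury. The share of all probes with the block is not set beside the 13, so that count describes the members alone. In Myd88KO injury such members went from 19 (7.32% of all probes higher and 12.2% lower) to 58 (25.7% of all probes). Same-numbered arrays correlated by -0.03 to 0.39 and 0.00 to 0.46 in these comparisons and by -0.22 to 0.33 between injured genotypes, so the correlation was not over 0.1 in every pair there, although same-numbered arrays shared a slide.

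Values near 0 changed sign: Ndufaf1 (-0.0436, array weights) and Cox6a1 (0.0442, quantile normalisation) between injured genotypes, Cox7a2l in wild-type injury (-0.0055, quantile normalisation, and -0.0546, array weights) and in Myd88KO injury (-0.0152, array weights), and Atp5b in Myd88KO injury (-0.0062, median scaling). With each array left out, wild-type injury ran from -0.20 to 0.0023 for Cox4i1, -0.0092 to 0.16 for Cox6a1, -0.0695 to 0.20 for Cox7a2l and -0.0278 to 0.17 for Atp5g2, and Myd88KO injury from -0.0474 to 0.0908 for Cox7a2l, -0.19 to 0.0896 for Sdha, and -0.0833 to 0.21 and -0.11 to 0.20 for 2 probes of Atp5b. Signal over background limits little here, since 102 tested members were well above it on all arrays.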
